A study of Mus musculus with 6 samples.

Results

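The transcripts described here are those that the GENCODE M21 annotation of the mouse genome classes as nonsense_mediated_decay (NMD) and that held at least 30 estimated counts in all, summed over 6 poly(A) RNA-seq libraries of mouse eWAT (epididymal white adipose tissue, a visceral depot beside the epididymis). They were thus chosen by their annotated class and by their counts summed over both groups. They numbered 3098, out of 7181 transcripts of this class and 140137 annotated transcripts in the files, of which 52756 reached 30 counts. They belonged to 2370 parent genes, of which 1848 had 1 such transcript and 522 had more, up to 10 for Tmem234. For each transcript the share is its percentage of all estimated counts of its parent gene in the same library. The libraries came from male wild type C57BL/6N mice aged 20 weeks, 3 of them labelled cold (mice 7, 12 and 16) and 3 labelled ctrl (mice 5, 6 and 10). The treatment text, identical for all 6 mice, describes 24 h of single housing at 4 °C before harvest, and the housing text gives 22 to 24 °C, so the groups rest on the ctrl and cold labels. The labels do not say whether control mice were housed alone. The mouse numbers mark separate animals, and all p-values are set against the spread between these mice. Libraries held 19657338 to 28572518 estimated counts in annotated transcripts, and the 5 adipocyte markers listed for this tissue summed to 21969 to 25224 CPM (counts scaled to library size) in ctrl and 25171 to 27225 CPM in cold.

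Nonsense-mediated decay is the surveillance route that degrades messenger RNAs whose stop codon lies upstream of an exon-exon junction that still carries an exon junction complex when ribosomes terminate. The helicase UPF1, with UPF2 and UPF3, marks such messages, the kinase SMG1 phosphorylates UPF1, and SMG6, an endonuclease, cleaves the message near the stop codon. Many splicing regulators, the SR proteins above all, keep their own levels in check by splicing in a poison exon that carries an early stop codon, so that the message is sent to decay. A steady-state level of such a transcript reflects both how often it is made and how quickly it is removed, and the libraries measure that level alone.

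The first set of sequences shows how a poison exon ends the reading frame: each runs from the first base of an exon that no protein_coding transcript of the gene overlaps to the premature stop codon, which is in capitals. Tra2a-202 and Tra2b-206 come from paralogous SR-like splicing factors, Srsf3-201 from an SR protein, Hnrnpl-213 from an hnRNP, Pnpla2-201 from the gene of adipose triglyceride lipase, Atp5f1-203 from a subunit of the mitochondrial ATP synthase, and Carm1-204 from an arginine methyltransferase that acts as a transcriptional coactivator. All are from the M21 transcript sequences, read 5′ to 3′ on the strand of the gene.
Tra2a-202: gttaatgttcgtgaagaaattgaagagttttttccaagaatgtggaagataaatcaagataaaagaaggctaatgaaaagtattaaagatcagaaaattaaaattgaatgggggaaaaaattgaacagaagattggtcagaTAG
Tra2b-206: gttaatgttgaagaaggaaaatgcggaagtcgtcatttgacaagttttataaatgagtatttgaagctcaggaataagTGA
Srsf3-201: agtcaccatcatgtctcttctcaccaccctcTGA
Hnrnpl-213: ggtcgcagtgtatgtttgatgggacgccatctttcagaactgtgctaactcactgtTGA
Pnpla2-201: gtgatcttgagcagctagaacaaTGA
Atp5f1-203: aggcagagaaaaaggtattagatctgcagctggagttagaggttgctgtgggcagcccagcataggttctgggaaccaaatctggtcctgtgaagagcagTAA
Carm1-204: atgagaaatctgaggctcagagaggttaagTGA
The Tra2a and Tra2b exons began with the same 9 bases and then differed. The Tra2a exon (exon 2 of 9, minus strand, chr6:49252803-49253108, build GRCm38) was 306 bases long, and its stop codon ended at base 144. The Tra2b exon (exon 2 of 10, minus strand, chr16:22258986-22259261) was 276 bases long with the stop codon ending at base 81, and the Srsf3 exon (exon 4 of 7, plus strand, chr17:29039454-29039909) was 456 bases long with the stop codon ending at base 34. The Pnpla2 exon (exon 2 of 10, plus strand, chr7:141456568-141456649) was 82 bases long with the stop codon ending at base 26, and the Carm1 exon (exon 4 of 17, plus strand, chr9:21574894-21575093) was 200 bases long with the stop codon ending at base 33. Hnrnpl-213 used a 70-base exon (exon 6 of 13, plus strand, chr7:28817335-28817404), and Atp5f1-203 a 167-base exon (exon 3 of 8, minus strand, chr3:105957870-105958036).

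The second set shows the more common arrangement, in which the stop lies in an exon that coding transcripts also overlap. Each sequence is the last 30 coding bases, with the stop codon in capitals. The first 4 are among the NMD transcripts with the most estimated counts in this tissue. The next 3 had some of the smallest p-values of the share test, and the last belongs to the NMD endonuclease itself.
Ppia-201: caaagacagcagaaaactttcgagctcTGA
Ddx5-208: accgatgtggcctccagagggctaggtTAG
Rpsa-206: tggccgcttcacacctgggaccttcacTAA
Angptl4-202: agccagacctcttggcccccacgcaccTAG
Zfp207-207: cctgtaatgtcgcaaggtggccgttacTGA
Retreg2-204: tgttgggacactatgttccgggagttaTGA
Agpat3-213: ctctcatcggctggacgtggtacttccTAG
Smg6-202: gatgatggagacattccctgcagtggcTGA
Coordinates of the exons with these stops, in GRCm38, were chr11:6418226-6418314 for Ppia-201 (plus strand, exon 3 of 5) and chr11:106782469-106784018 for Ddx5-208 (minus strand, exon 11 of 12). They were chr11:80395390-80395573 for Zfp207-207 (plus strand, exon 11 of 17) and chr1:75144622-75144706 for Retreg2-204 (plus strand, exon 5 of 9). Zfp207-207 differed from the other 7 in that its stop was the same base position as the stop of a coding transcript of the gene, with further exons spliced on after it.

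The annotated stop sat at least 50 bases upstream of the last exon-exon junction in 3091 of the 3097 members with an annotated stop, with a median distance of 415 bases (quartiles 198 and 928). The M21 class is assigned from this geometry, so it is no independent support for decay. A single junction followed the stop in 649 members, and the median coding length was 345 bases. For 719 members the annotated coding sequence has no start, so their coding length is a minimum. TGA was the stop of 58.1% of the members, TAA of 22.2% and TAG of 19.7%. Among 27232 protein_coding transcripts with at least 30 counts and an annotated stop, TGA made up 50.7%, TAA 26.0% and TAG 23.3%. By the place of the stop, 567 members (501 genes) ended in an exon that no coding transcript of the gene overlaps, as in the first set of sequences. In 242 members (217 genes) the stop was that of a coding transcript, 2241 members (1774 genes) had another premature stop, 47 came from genes with no protein_coding transcript in M21, and 1 had no stop annotated.

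Most of these transcripts differ from others of their gene by little sequence. In 1651 of the 3098 (53.3%) every exonic base also lay in another transcript of the gene, and 417 of these had no junction of their own either. Their counts therefore depend on how the quantification tool Salmon shares reads that fit several transcripts. The median share was 5.07% in the 1651 and 6.13% in the other 1447. These medians cover different transcripts, so they do not show how well such reads were assigned.

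NMD transcripts made up 1.90 to 1.99% of all counts. The median member held 197 counts over the 6 libraries and a mean share of 5.51% of its parent gene. The shares were spread widely, with quartiles of 1.74% and 17.5% and a 90th percentile of 40.4%, and 223 members held more than 50% of their gene while 471 held under 1%. Members with 5 or more junctions after the stop had a median share of 8.53% and those with 1 junction 4.39%, but on a per-length scale, with TPM (a length-corrected abundance) in place of counts, these medians were 7.48% and 7.75%.

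The precision of a share followed the counts behind it. The median coefficient of variation of the share between the 3 ctrl libraries was 87.0% for the 1009 members with 30 to 100 summed counts, 46.3% for 100 to 300, 26.0% for 300 to 1000, 13.1% for 1000 to 3000 and 6.61% for the 175 members above 3000. In 1130 members at least 1 library had no count (under 0.5), as was the case for 66.3% of those with 30 to 100 counts and 1.71% of those above 3000. Just inside the minimum were Khdrbs3-202 with 30.01 summed counts, Vps11-203 with 30.1 and Rab4a-203 with 30.1, and just outside it Tbc1d10c-206, Rnf181-210 and Slc18b1-202 with 29.9 each.

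The most abundant NMD transcript was Pnpla2-201, which alone held 8.13% of all member counts. Pnpla2 encodes adipose triglyceride lipase, which takes the first fatty acid off stored triglyceride. Pnpla2-201 had 29221, 28259 and 28269 counts in ctrl 5, ctrl 6 and ctrl 10, and 42239, 48099 and 49914 in cold 7, cold 12 and cold 16, so the cold libraries were all higher. Its share of the gene was 59.6, 59.8 and 59.4% in ctrl and 63.7, 58.8 and 59.6% in cold, and the groups overlapped. The higher counts in cold therefore came with the whole gene, whose level was 0.46 ± 0.11 (SE) log2 units higher in cold (adjusted p = 0.062, edgeR's quasi-likelihood test, adjusted by Benjamini-Hochberg). Pnpla2-201 has no base and no junction that is absent from every other transcript of the gene, and the protein_coding Pnpla2-202 was counted at 27.8 ± 0.35% of the gene in ctrl and 24.8 ± 3.09% in cold (SD, n = 3 each).

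The other 9 most abundant members kept high estimated shares in both groups. Of these, only Rpsa-206 and Ddx5-208 have exonic bases found in no other transcript of the gene (73 and 729 bases). The estimates for the others rest on junctions of their own and on how Salmon shares reads that fit several transcripts. Ppia-201, from the gene of cyclophilin A, a peptidyl-prolyl isomerase, held 94.3, 94.1 and 95.3% of its gene in ctrl and 94.7, 94.7 and 95.1% in cold. Angptl4-202, from the gene of a secreted inhibitor of lipoprotein lipase, held 83.4, 83.6 and 83.1% in ctrl and 84.0, 84.4 and 83.8% in cold. The groups of Angptl4-202 did not overlap, by a margin smaller than the spread within either group, and its log2 ratio was 0.01 ± 0.01. Rpsa-206, from the gene of a small ribosomal subunit protein, held 71.3 to 77.2% in ctrl and 69.0 to 76.3% in cold. Prdx6-208 (peroxiredoxin, an antioxidant enzyme), H2-Eb1-205 (an MHC class II chain), Chpt1-207 (a choline phosphotransferase), Adhfe1-201 (a hydroxyacid-oxoacid transhydrogenase) and Hnrnpu-206 all had overlapping groups. Their shares in the ctrl libraries ran from 31.9 to 35.2% for Chpt1-207 up to 82.3 to 82.8% for Adhfe1-201. Ddx5-208 had all cold libraries below all ctrl libraries: its share was 61.9, 60.6 and 58.3% in ctrl and 57.2, 56.1 and 51.1% in cold. Ddx5 is an RNA helicase of splicing and transcription, and the log2 ratio of this share was -0.14 ± 0.05, with an unadjusted p of 0.036 and an adjusted p of 1.00 (edgeR's quasi-likelihood test). The counts that Ddx5-208 did not hold were mostly on the protein_coding Ddx5-201, at 37.1 ± 1.59% of the gene in ctrl and 42.0 ± 3.10% in cold (SD, n = 3 each).

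Taking all parent genes together, NMD transcripts held slightly more of the parents' counts in the cold libraries. The share was 11.42, 11.41 and 11.36% in ctrl 5, ctrl 6 and ctrl 10 and 11.54, 11.88 and 11.80% in cold 7, cold 12 and cold 16, or 11.4 ± 0.031% and 11.7 ± 0.18% (SD, n = 3 each). The groups did not overlap, and an exact two-sided permutation test gave p = 0.10, the smallest that 3 libraries against 3 allow. This difference of 0.346 percentage points came with Pnpla2: the gene held 1.21, 1.23 and 1.45% of the parents' counts in ctrl and 1.73, 1.95 and 1.76% in cold. Without Pnpla2 the difference was 0.0542 points (exact p = 0.6), and the 2 groups overlapped, from 10.6 to 10.8% in ctrl and from 10.6 to 10.9% in cold. With each parent gene given the same weight in all libraries, so that only shares within genes could differ, it was 0.015 points (11.6 ± 0.24% against 11.6 ± 0.21%, exact p = 0.9). In bulk tissue, fewer cells of a type and less RNA per cell cannot be told apart, and this holds for each level given here.

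**Figure D1:**
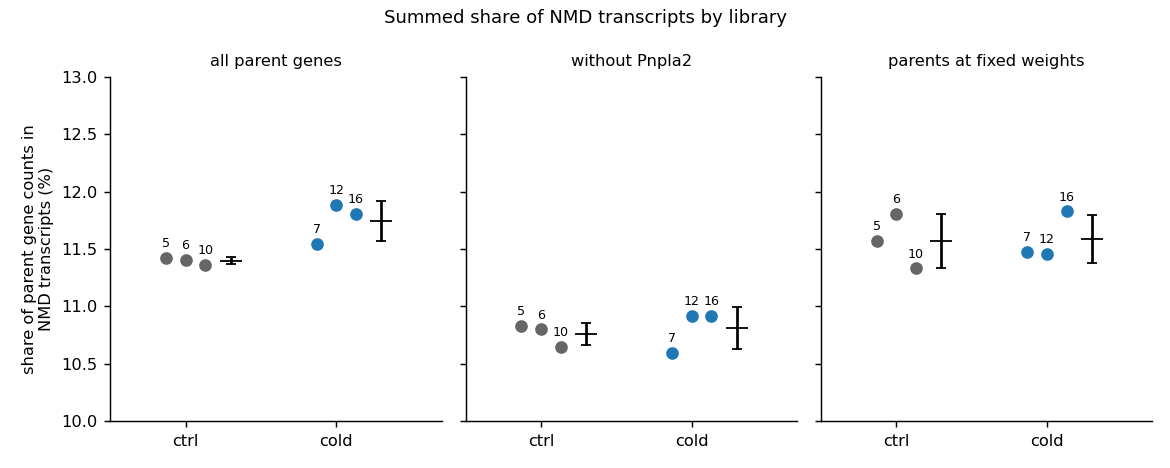
Share of parent gene counts held by NMD transcripts (%, vertical axis from 10 to 13) in each library, numbered by mouse, for all parent genes, without Pnpla2, and with parent genes at fixed weights; black bars are mean ± SD of 3 libraries. The cold libraries, at 11.54 to 11.88%, lie above the ctrl libraries, at 11.36 to 11.42%, in the left panel, and the groups overlap in the other panels.

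The median share over the members, in which each transcript counts the same, was 4.59, 4.62 and 4.56% in ctrl and 4.49, 4.97 and 4.94% in cold. Cold 7 lay below the ctrl libraries and the other cold libraries above them, so the groups overlapped (exact permutation p = 0.4). The transcripts M21 classes as retained_intron, another kind of incompletely or alternatively processed message, held 7.72, 7.30 and 7.61% of their parents' counts in ctrl and 6.84, 7.75 and 7.90% in cold. That difference of -0.048 percentage points was smaller than the spread within either group (exact permutation p = 1).

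The class with the stop in an exon absent from coding transcripts, the poison exon arrangement, held 9.54, 9.32 and 9.70% of its parents' counts in ctrl and 10.98, 11.04 and 10.55% in cold. Pnpla2-201 belongs to this class, and without Pnpla2 the shares were 6.44, 6.20 and 6.01% in ctrl and 6.16, 6.19 and 6.05% in cold, with overlap. Members whose stop was that of a coding transcript held 7.04 to 7.28% of their parents' counts in ctrl and 6.80 to 7.35% in cold. Those with another premature stop held 11.3 to 11.5% in ctrl and 11.4 to 11.7% in cold, so for both classes the groups overlapped. Within the poison exon class 249 of 561 tested members had a higher and 312 a lower share in cold, with a median log2 ratio of -0.05, and over all transcripts tested this median was 0.00.

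No single NMD transcript passed the test of its share. Of 3003 members that could be tested, none had an adjusted p under 0.05 in edgeR's quasi-likelihood test, adjusted by Benjamini-Hochberg, where 0% of all 43598 transcripts tested were called. An unadjusted p under 0.05 was found for 136 members (65 higher and 71 lower in cold), or 4.53% beside 3.86% of all transcripts tested. The shares of the groups did not overlap in 314 tested members, or 10.5%, beside 10.7% of all transcripts tested. Of these, 153 were higher in cold (5.34% of all transcripts were) and 161 lower (5.33% of all). The median log2 ratio was 0.00 over the members and 0.00 over all transcripts tested. DESeq2 called 33 members (0.828% of all transcripts tested were called by it), of which 21 were at 0 in all libraries of 1 group. The usage test diffSpliceDGE called 18 members (0.349% of all), of which 17 were at 0 in all libraries of 1 group, and limma called none. Data were simulated with the counts of these libraries, with 50 transcripts changed at each fold, drawn without regard to class. There edgeR's test recovered 0% of transcripts changed 0.5-fold, 2% changed 2-fold, 4% changed 0.25-fold and 6% changed 2.5-fold, with no false call among 6. DESeq2 and diffSpliceDGE called more there, but 84.4% and 94.1% of their calls were false. All 39 calls of limma there were false, and it recovered 0% of the changed transcripts. A change of share of the size simulated was thus mostly not detectable over transcripts of all classes together. Recovery was not split by class or by counts. The absence of calls does not show that shares were the same.

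**Figure D2:**
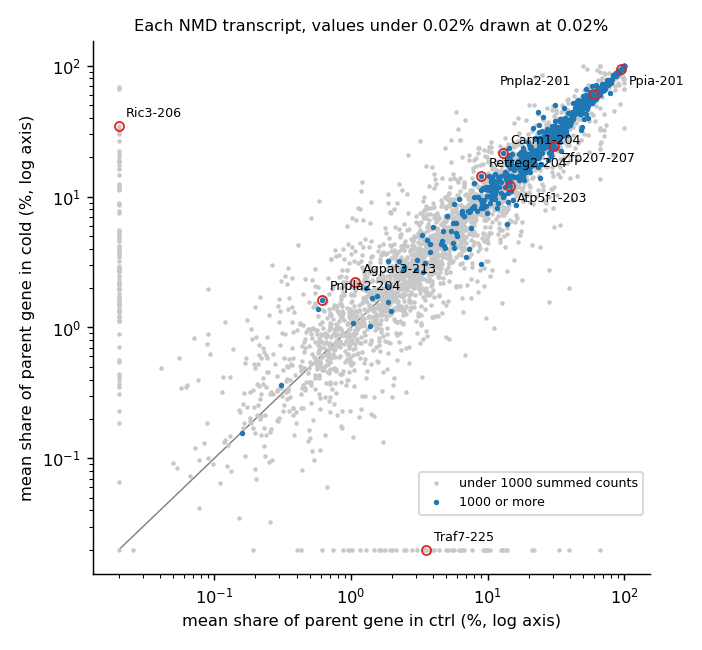
Mean share of the parent gene in the 3 ctrl libraries (horizontal, %, log axis) against the 3 cold libraries (vertical, %, log axis), 1 point per NMD transcript, blue for 1000 or more summed counts, with values under 0.02% drawn at 0.02% and named members circled. Most members with 1000 or more counts lie close to the line of equal shares, and the widest scatter is among those with fewer counts.

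The 10 members with the smallest p in the share test were of 2 kinds, and 5 of them were counted in every library. Zfp207-207 had the smallest p. Zfp207 encodes BuGZ, a zinc finger protein that binds kinetochores and spindle microtubules and takes part in splicing. The share of Zfp207-207 was 30.4, 31.1 and 30.3% in ctrl and 23.5, 25.1 and 24.7% in cold, with all cold libraries below all ctrl libraries. The log2 ratio was -0.32 ± 0.03 (SE; unadjusted p = 0.00016, adjusted p = 0.41 in edgeR's quasi-likelihood test), while the gene itself differed by 0.02 log2 units. A second NMD transcript of the gene, Zfp207-204, held 14.0, 14.6 and 14.4% in ctrl and 12.9, 13.6 and 12.1% in cold, also without overlap. The coding Zfp207-206 held 14.3 ± 2.91% in ctrl and 18.7 ± 1.24% in cold (SD, n = 3 each).

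Carm1-204, the transcript with the 200-base exon printed above, had the opposite direction. Its share was 13.2, 12.6 and 13.2% in ctrl and 22.4, 18.6 and 23.1% in cold, with no overlap and a log2 ratio of 0.71 ± 0.11 (unadjusted p = 0.0010, adjusted p = 0.62 in edgeR's quasi-likelihood test). The main coding transcript, Carm1-201, held 47.8 ± 0.72% of the gene in ctrl and 39.3 ± 3.22% in cold (SD, n = 3 each). CARM1 methylates histones and splicing factors, and the level of its gene differed by -0.09 log2 units between the groups.

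Retreg2-204 comes from the gene of a reticulon-like protein of the endoplasmic reticulum, a family that takes part in turnover of that organelle. It held 8.02, 9.94 and 8.87% of the gene in ctrl and 15.4, 13.7 and 13.7% in cold, with no overlap (log2 ratio 0.68 ± 0.11, unadjusted p = 0.0014). The coding Retreg2-201 held 75.1 ± 4.23% of the gene in ctrl and 61.7 ± 3.83% in cold (SD, n = 3 each). Another coding transcript, Retreg2-208, was higher in cold, at 15.3 ± 3.54% in ctrl and 23.3 ± 3.11% in cold. Agpat3-213, from an acyltransferase gene of phospholipid and triglyceride synthesis, held 1.01, 0.932 and 1.29% in ctrl and 2.20, 2.08 and 2.39% in cold (log2 ratio 1.05 ± 0.18). Pnpla2-204, which like Pnpla2-201 ends in an exon absent from the coding transcripts, held 0.490, 0.588 and 0.768% in ctrl and 1.71, 1.56 and 1.63% in cold (log2 ratio 1.41 ± 0.17). Adjusted p-values of these 3 members were 0.62, 0.62 and 0.42 in edgeR's quasi-likelihood test. Pnpla2-204 stayed a minor fraction of the gene in both groups, far below Pnpla2-201. DESeq2 called all 5 of these members and diffSpliceDGE 1 of them, Pnpla2-204.

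**Figure D3:**
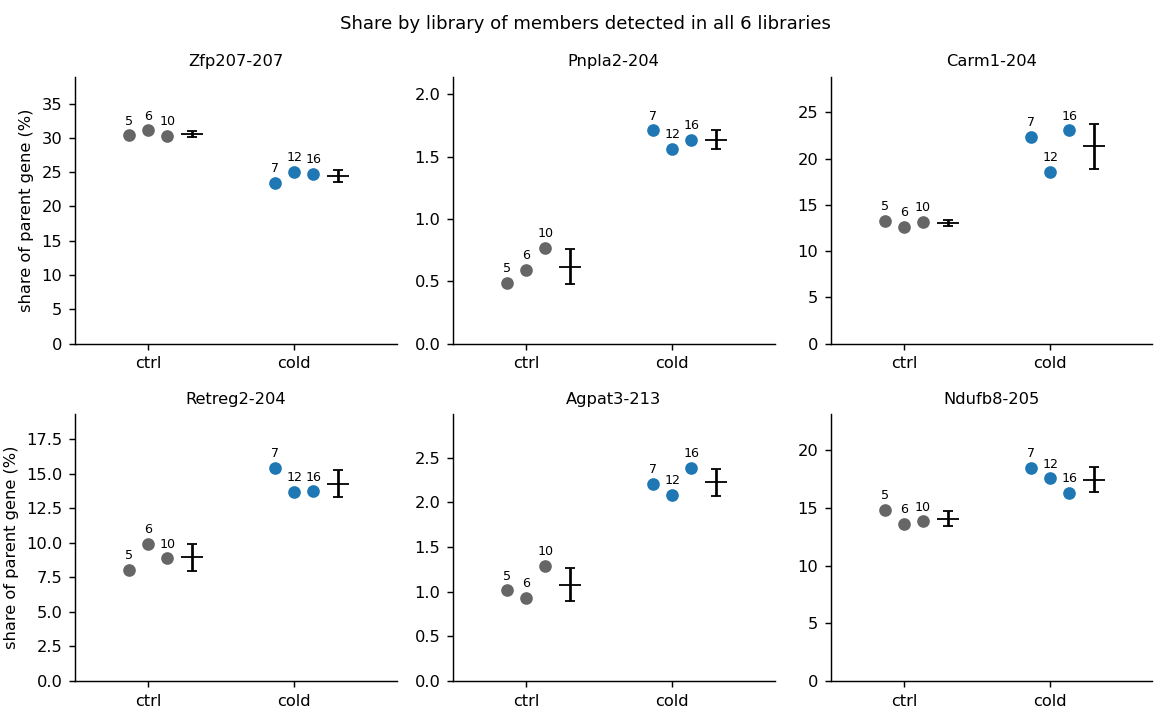
Share of the parent gene (%, vertical axes from 0) by library, numbered by mouse, for Zfp207-207, Pnpla2-204, Carm1-204, Retreg2-204, Agpat3-213 and Ndufb8-205, with mean ± SD of 3 libraries as black bars. In each panel the ctrl and cold libraries do not overlap, and Zfp207-207 is the panel with the lower values in cold.

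The other 5 were at 0 in every library of 1 group. Traf7-225 (Traf7 is a ubiquitin ligase of TNF receptor signalling) had 72.0, 52.8 and 68.6 counts in ctrl and 0 in the 3 cold libraries. Its share of 3.51% over the ctrl libraries was at least 67.0-fold above the 0.0523% that 3 counts over the cold group allow. Ash2l-205, from a subunit of histone methyltransferase complexes, had 53.1, 66.7 and 40.2 counts in ctrl and 0 in cold. Its share of 6.20% over the ctrl libraries was at least 57.9-fold higher than the limit in cold. Zw10-202, from a kinetochore protein gene, was likewise at 0 in cold, with 20.6 to 37.3 counts in ctrl. Cd22-214 was at 0 in ctrl and had 33.3, 31.0 and 18.2 counts in cold, out of a gene with few counts: it held 66.7, 85.8 and 51.6% of Cd22, a lectin receptor of B cells, there. Ercc8-210, from a gene of transcription-coupled DNA repair, was at 0 in ctrl and held 35.1, 20.8 and 44.4% of its gene in cold, at least 34.8-fold above the 0.993% that 3 counts over the ctrl group allow. These limits cover counting error only, not the sharing of reads between transcripts, whose part in these zeros was not tested. Traf7-225 and Ercc8-210 have no base and no junction of their own. With all NMD transcripts of the gene summed, the log2 ratio of the share was 0.12 for Traf7 and -0.83 for Ash2l. It was -7.99 for Zw10, 6.45 for Cd22 and 1.47 for Ercc8.

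Members at 0 in a whole group were not rare. They numbered 146, with 91 at 0 in ctrl and 55 at 0 in cold, or 4.71% of the members beside 2.84% of all transcripts with 30 counts. They had a median of 54.6 summed counts, and since they passed the minimum through 1 group alone, a difference was built into their selection. The log2 fold change of the parent gene, for comparison, was -0.17 for Traf7, -0.10 for Ash2l, -0.12 for Zw10, 0.17 for Ercc8 and -0.86 for Cd22 (adjusted p = 0.16 for Cd22 in edgeR's quasi-likelihood test), so the Cd22 gene was lower in cold where Cd22-214 was higher.

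Summing all NMD transcripts of a gene gave no call either. Of 2308 genes tested this way none had an adjusted p under 0.05 (edgeR's quasi-likelihood test, 0% of all 19234 gene and class sums called), and 140 had an unadjusted p under 0.05, or 6.07% beside 4.28% of all sums. DESeq2 called 11 of the 2308 (0.14% of all sums were called by it) and limma none. The test of abundance compares the level of each transcript and not its share. In it, again none of 3098 members was called by edgeR's quasi-likelihood test, as for 0% of all 52756 transcripts. On simulated data this test recovered 0% of transcripts changed 0.5-fold or 2-fold and 6% of those changed 0.25-fold or 2.5-fold. There, 1 of its 7 calls was false. The absence of abundance calls thus does not show that levels were the same. An unadjusted p under 0.05 was found for 188 members, or 6.07% beside 7.83% of all transcripts, and DESeq2 called 36 members, of which 27 were at 0 in all libraries of 1 group (2.41% of all transcripts were called by it). Among the smallest p-values of this test were again transcripts at 0 in 1 group. Ric3-206, from a chaperone of acetylcholine receptors, had 121, 65.3 and 232 counts in cold and 0 in ctrl. Foxred1-206, from an assembly factor of respiratory complex I, had 43.4, 54.0 and 19.6 counts in cold and 0 in ctrl, and Aasdhppt-202 had 76.6, 23.2 and 60.9 counts in ctrl and 0 in cold. With all NMD transcripts of the gene summed, the log2 ratio of the share was 10.2 for Ric3, 0.43 for Foxred1 and -0.34 for Aasdhppt.

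Among the SR proteins, the splicing regulators best known for poison exons, 12 members in 9 genes were found and none had an unadjusted p under 0.05. Tra2a-202 was the most abundant, at 30.4, 35.9 and 39.8% of its gene in ctrl and 30.3, 36.8 and 34.3% in cold. Tra2b-206 held 8.32, 10.5 and 11.3% in ctrl and 12.9, 11.01 and 9.88% in cold, and Srsf3-201 held 8.83, 12.51 and 5.48% in ctrl and 7.47, 7.28 and 9.84% in cold. For all 3 the range in cold lay largely within or across that in ctrl. Srsf1-204 (4.52 to 7.84% in ctrl, 5.85 to 8.70% in cold) and Srsf6-201 (6.23 to 8.52% in ctrl, 6.80 to 9.65% in cold) also overlapped. Over the 12 members the median log2 ratio was 0.11, with 8 higher and 4 lower in cold, and none had groups that did not overlap.

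The hnRNP proteins, which package pre-mRNA and often act against SR proteins, had 21 members in 11 genes, none with an unadjusted p under 0.05 and with a median log2 ratio of -0.01 (9 higher and 12 lower in cold). Hnrnpu-206 held 39.9, 43.0 and 40.7% of its gene in ctrl and 48.4, 43.4 and 40.1% in cold. Hnrnpa1-204 held 22.7 to 26.7% in ctrl and 21.6 to 26.0% in cold, and a second Hnrnpa1 transcript, Hnrnpa1-203, held 17.1 to 18.7% and 16.7 to 18.4%. Hnrnpl-213, with the 70-base exon shown above, held 8.22 to 9.35% in ctrl and 8.64 to 10.3% in cold.

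Other RNA-binding and splicing genes had 45 members in 23 genes, 4 of them at an unadjusted p under 0.05 (median log2 ratio 0.06). Clk1-210 comes from a kinase that phosphorylates SR proteins, and it held 28.2, 24.5 and 27.5% of its gene in ctrl and 26.3, 24.3 and 27.7% in cold, with overlap. Rbm5-210, from an RNA-binding protein of spliceosome assembly, held 25.3 to 29.0% in ctrl and 24.2 to 28.0% in cold. Son-208, from a nuclear speckle scaffold, held 6.31, 7.45 and 10.2% in ctrl and 16.0, 11.3 and 10.6% in cold, where the lowest cold library was just above the highest ctrl library (log2 ratio 0.66 ± 0.25, unadjusted p = 0.041, adjusted p = 1.00 in edgeR's quasi-likelihood test). Ddx5-208, given above, belongs to the same list.

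Cytosolic ribosomal protein genes, several of which regulate themselves through NMD isoforms, had 20 members in 15 genes, of which 1 had an unadjusted p under 0.05 (median log2 ratio 0.10). In 6 of the 20 the groups did not overlap (5 higher and 1 lower in cold), beside 10.7% of all transcripts tested. Rpl13a-216 held 20.8 to 21.5% of its gene in ctrl and 19.9 to 23.0% in cold, and Rpl14-205 held 30.8 to 32.7% and 30.4 to 35.9%. The ranges overlapped for both.

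Respiratory chain subunit genes had 13 members in 12 genes, of which 2 had an unadjusted p under 0.05, in opposite directions. Ndufb8-205, from an accessory subunit of complex I, held 14.8, 13.6 and 13.8% in ctrl and 18.5, 17.6 and 16.3% in cold, with no overlap (log2 ratio 0.31 ± 0.06, unadjusted p = 0.0034, adjusted p = 0.75 in edgeR's quasi-likelihood test). Ndufa3-204, from another accessory subunit, held 34.7, 36.4 and 35.0% in ctrl and 32.7, 31.0 and 28.0% in cold (log2 ratio -0.21 ± 0.07, unadjusted p = 0.029). Ndufs4-202 held 40.4 to 44.0% in ctrl and 37.3 to 44.2% in cold. Atp5f1-203 was the least even of the named members with over 3000 counts: its share was 11.9, 15.6 and 16.3% in ctrl, and 25.1, 8.89 and 2.07% in cold 7, cold 12 and cold 16. The coding Atp5f1-201 took the rest, at 74.0, 89.9 and 96.6% in the cold libraries.

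**Figure D4:**
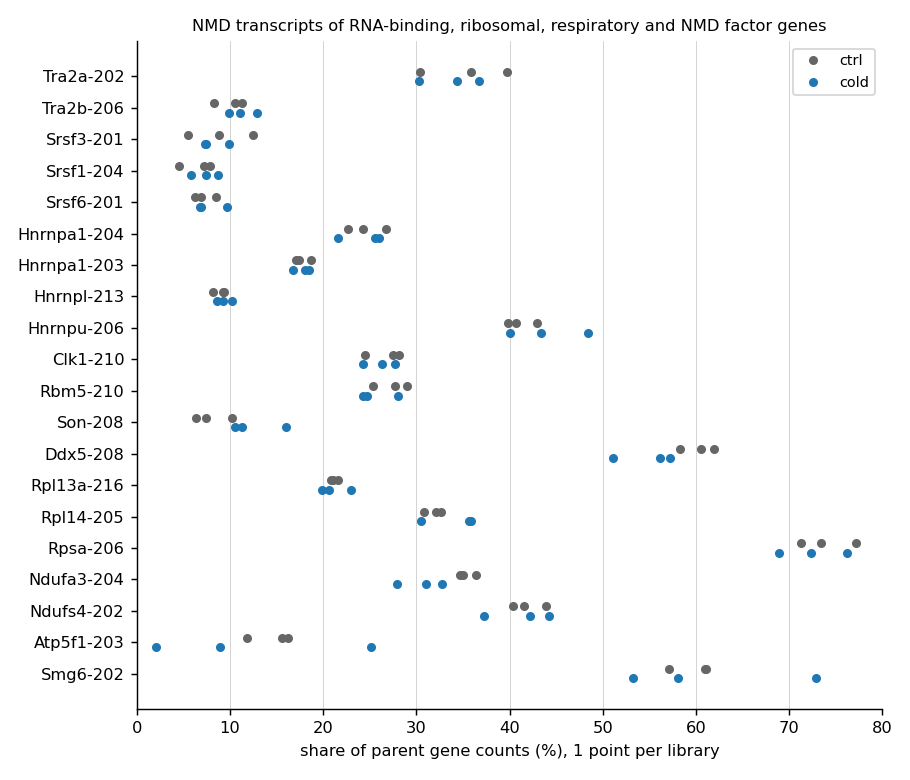
Share of the parent gene (%, horizontal axis) in each library, grey for ctrl and blue for cold, for named NMD transcripts of SR, hnRNP, other RNA-binding, ribosomal, respiratory chain and NMD factor genes. Among the members drawn, the points of both groups overlap except for Son-208, Ddx5-208 and Ndufa3-204 (Ndufb8-205 is drawn with the members of small p), and Atp5f1-203 has the widest spread, from 2.07 to 25.1% in cold.

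The adipocyte list had 8 members in 6 genes, 2 of them at an unadjusted p under 0.05. The median log2 ratio was 0.45, with 6 of the 8 higher in cold, and 4 had groups without overlap (3 higher and 1 lower in cold), beside 10.7% of all transcripts tested. The median share of the 8 was 0.21% of the gene, and the highest was the 60.2% of Pnpla2-201. Lpl-203, from the gene of lipoprotein lipase, held 0.117, 0.197 and 0.163% of its gene in ctrl and 0.176, 0.193 and 0.102% in cold. Lipe-206, from the gene of hormone-sensitive lipase, held 0.356, 0.204 and 0.356% in ctrl and 0.427, 0.342 and 0.316% in cold. Both overlapped between the groups.

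The highest shares among parents with at least 1000 counts were 100% in every library, in the genes Gm20605, Gm42688, Ggnbp1, Gm28043 and Gm28035. These have no protein_coding transcript in M21, and their member was the only transcript with counts, so its share cannot vary and was not tested. Their counts over the 6 libraries ran from 1270 for Gm42688-201 to 8887 for Gm20605-201.

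Of the NMD factors one gene had a member, Smg6, whose product cuts NMD targets near the stop codon. Smg6-202 held 57.1, 61.0 and 61.1% of the gene's counts in ctrl and 53.2, 58.1 and 72.9% in cold, and cold 16 alone lay above the ctrl range. At the gene level none of 13 NMD factors was called in edgeR's quasi-likelihood test, adjusted by Benjamini-Hochberg, where 2.89% of 17852 genes were, and 5 had an unadjusted p under 0.05 beside 17.6% of all genes. Pnrc2, a decapping adaptor that has been linked to UPF1, was nearest: it had 72.2, 72.4 and 68.5 CPM in ctrl and 82.6, 91.9 and 95.2 CPM in cold (log2 fold change 0.34 ± 0.08, adjusted p = 0.056). Upf3b, which ties UPF2 to the exon junction complex, had 23.6, 23.5 and 20.2 CPM in ctrl and 27.2, 27.1 and 29.9 CPM in cold (0.32 ± 0.09, adjusted p = 0.11). Smg6 itself had 54.4, 51.0 and 54.4 CPM in ctrl and 50.7, 43.8 and 39.8 CPM in cold (-0.25 ± 0.10, adjusted p = 0.22). Dhx34 (-0.28) and Nbas (-0.29) were also lower in cold. Of the 13 factors, 8 were higher and 5 lower in cold, with a median log2 fold change of 0.01. The central helicase Upf1 had 109 ± 3.64 CPM in ctrl and 110 ± 8.19 CPM in cold, and Upf2 34.5 ± 0.83 and 34.5 ± 1.65 CPM (SD, n = 3 each).

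The 9 genes of the exon junction complex and cap binding had log2 fold changes between -0.14 (Ncbp2) and 0.26 (Magoh), with none called and 2 at an unadjusted p under 0.05. Magoh, a core subunit of the exon junction complex, had 17.5, 17.4 and 17.2 CPM in ctrl and 19.8, 20.1 and 22.4 CPM in cold. Its partner Eif4a3, the helicase that anchors the complex, had 70.1, 70.0 and 70.5 CPM in ctrl and 67.4, 67.7 and 67.7 CPM in cold, a small and even difference of -0.05 ± 0.06 log2 units. The 8 genes of termination and decapping lay between -0.28 (Dcp1b) and 0.18 (Gspt2), with 1 at an unadjusted p under 0.05, the decapping scaffold Edc4 (54.8 ± 1.604 CPM in ctrl, 47.2 ± 5.18 CPM in cold, SD, n = 3 each).

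Genes whose messages are known from cultured cells to be NMD substrates had a median log2 fold change of 0.16 over 10 genes, beside -0.01 over all genes tested, with 6 higher and 4 lower in cold and none called. Of the 10, 4 had an unadjusted p under 0.05 (Gadd45a, Gas5, Atf3 and Atf4), beside 17.6% of all genes. Gadd45a, a stress-induced gene and a well-known NMD target, had 13.9, 14.3 and 14.7 CPM in ctrl and 18.01, 20.4 and 23.6 CPM in cold (0.53 ± 0.12, adjusted p = 0.052 in edgeR's quasi-likelihood test). The snoRNA host gene Gas5 had 78.9 ± 2.28 CPM in ctrl and 90.2 ± 4.87 CPM in cold, and the stress regulator Atf4 112.6 ± 6.97 and 127.7 ± 4.18 CPM (SD, n = 3 each). Atf3, another stress factor, went the other way, with 9.58, 9.61 and 7.03 CPM in ctrl and 7.66, 5.62 and 5.00 CPM in cold (-0.52 ± 0.21, adjusted p = 0.23). DESeq2 called Pnrc2 and Gadd45a, and no other of these 40 genes, where it called 7.51% of all genes.

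**Figure D5:**
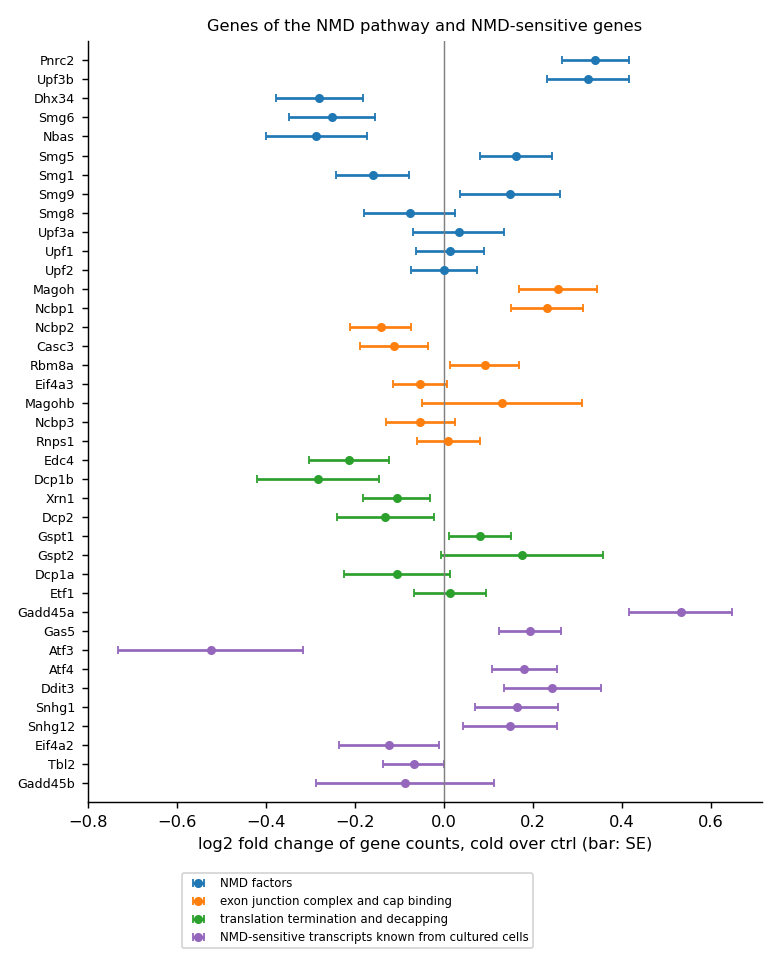
Log2 fold change of gene counts, cold over ctrl (horizontal axis, points with SE bars), for genes of the NMD pathway and known NMD-sensitive genes, coloured by list. The values run from -0.52 (Atf3) to 0.53 (Gadd45a) and most lie within 0.3 of 0.

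The parent genes were also tested at the gene level. Of 2353 parents tested, 28 rose and 13 fell in cold (edgeR's quasi-likelihood test, adjusted p under 0.05), or 1.74% in all, beside 2.89% of all 17852 genes tested (2.32% up and 0.566% down). The parents that rose were mostly low in adipose tissue, with a median mean level of 2.53 CPM, and included the cilium genes Nme5, Morn3, Cfap100 and Ccdc81 and the epithelial protease gene Hpn and the protease inhibitor gene Spint2. Hpn had 3.51, 2.41 and 2.11 CPM in ctrl and 9.37, 26.2 and 22.3 CPM in cold (log2 fold change 2.84 ± 0.43, adjusted p = 0.035). Summed CPM of 10 motile cilium markers was 6.48 to 32.2 in ctrl and 66.8 to 207.7 in cold, and that of 10 epithelium markers 18.4 to 62.5 and 143.6 to 238.3. The part of such cells in these calls was not tested. Aqp9, a glycerol channel, rose from 2.39 ± 0.90 to 9.36 ± 1.39 CPM (SD, n = 3 each). Idh3a, a subunit of the tricarboxylic acid cycle enzyme isocitrate dehydrogenase, rose from 179.2 ± 12.9 to 240.0 ± 17.1 CPM.

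Abundance was greater among the 13 parents that fell (median 74.8 CPM). Mst1r, a receptor tyrosine kinase, fell from 79.9 ± 4.24 to 50.4 ± 5.81 CPM (SD, n = 3 each), and its NMD transcript Mst1r-204 held a mean of 25.9% of the gene. Dhrs3, a retinal reductase, fell from 200.6 ± 7.99 to 138.2 ± 17.3 CPM, with Dhrs3-201 at 19.3% of the gene, and Tep1, a telomerase-associated protein, from 66.5 ± 3.77 to 51.8 ± 2.38 CPM with 2 members that together held 53.2%. The smallest unadjusted p in the share test was 0.17 for Mst1r-204, 0.39 for Dhrs3-201 and 0.29 for the Tep1 members. Without ctrl 6, ctrl 10, cold 12 or cold 16 no parent was called, and without ctrl 5 and cold 7 there were 81 calls, or 3.44% of the parents beside 6.31% of all genes.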

How the data were processed

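The data are 6 strand-specific, paired-end poly(A) libraries with reads of 50 nt, per the labels' protocols. The submitters' processing notes name bcl2fastq, cutadapt, Salmon and GRCm38, with no versions or settings. Each library has 1 table of 140658 transcripts with Salmon's estimated counts, TPM and lengths as the authors deposited them, per the file headers. TPM as deposited served only for per-length shares. Of the identifiers 140137 matched GENCODE M21, and the other 521, with 0.124 to 0.394% of a library's counts, were left out. Any 2 libraries of a group differed by more than sampling noise, with a chi-square of at least 11.1 per degree of freedom.

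Estimated counts were rounded to whole numbers and tested with edgeR 4.0.16 in R 4.3.3 (robust glmQLFit and glmQLFTest, cold against ctrl, no covariate, Benjamini-Hochberg adjustment over all features, threshold 0.05). The share test took the log of the parent gene's count as the offset, over transcripts with 30 counts, 30 more in the rest of the gene and 10 gene counts in each library. Tests of abundance and of genes used TMM scaling, genes after filterByExpr with its minimum count of 10. CPM are TMM-scaled. The alternatives used DESeq2 1.42.0, limma 3.58.1 and diffSpliceDGE. Steps were tested on simulated data. Pooled shares were compared by exact two-sided permutation tests (scipy 1.17.1).

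Members and gene lists were chosen with earlier results of these data known. Named were the 10 members with the most counts, the 10 with the smallest p in each transcript test, up to 4 per list with the most counts, the 5 highest shares and those nearest the minimum; some of these are not reported here. Tra2b-206, Zfp207-204, coding transcripts of parents and the parents named among gene calls were chosen after their values were seen. Sequences and coordinates, counted from 1, are those of M21 on GRCm38.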

Additional observations from a re-analysis of the deposited data

How the results depend on the processing

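The difference in the summed share of NMD transcripts (0.346 percentage points) stayed within 1 SD for all NMD-type transcripts with any count, a minimum of 100, TPM and each left-out library. It moved to 0.00922 without the 10 members with the most counts, and, in alternatives chosen after seeing the data, to 0.0542 without Pnpla2 and 0.015 with parents at fixed weights. The difference in median share (0.210) was 0.237 for all NMD-type transcripts with any count (exact permutation p = 0.1), where the groups did not overlap. It was 0.216 with a minimum of 100 and 0.0107 with TPM. With 1 library left out it ran from 0.124 (without cold 12) to 0.366 (without cold 7). Over members with at least 1000 counts it was -1.12, an alternative also chosen after seeing the data. The cause of these moves was not tested beyond what each construction removes. Calls of members by share went from 0 to 33 with DESeq2 and 18 with diffSpliceDGE, gene sums from 0 to 11 and abundance from 0 to 36 with DESeq2; filters, limma and left-out libraries gave 0. Parent gene calls (41, of 516 over all genes) were 77 of 924 without a filter, 118 of 1340 with DESeq2, 81 of 1126 without ctrl 5 and cold 7, and 0 to 84 with 1 library left out. Calls among the 40 pathway genes (0) were 1 with RLE size factors (Gadd45a), and 2 (Pnrc2 and Gadd45a) without a filter, with DESeq2 and without ctrl 5 and cold 7, and 0 to 2 with 1 library left out. Of 17 named members with an unadjusted p under 0.05, none changed direction in 204 refits. Those at 0 in all libraries of 1 group could not change direction. Many of the others were picked by their small p in these same libraries, so the refits are no independent support. No paired analysis was possible because the mouse numbers of the groups share none. The depth limits most members: under 300 counts the median coefficient of variation between ctrl libraries was 46.3% or more, and resampled estimates of read sharing were not used here.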
